A study of Macaca mulatta with 8 samples.

Results

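Open chromatin was described at the loci of 10 genes of the GABAergic interneuron lineage, DLX1, DLX2, DLX5, DLX6, GAD1, GAD2, LHX6, NKX2-1, GSX2 and SP8, in cultured cortex cells of the rhesus macaque. A locus was the gene body with the 5000 bp upstream of it in the Mmul_10 annotation. All merged regions that overlapped a locus and held a macaque peak were taken, which gave 38 regions of 72358 in the series. The rule uses gene names and positions and no measured value, though the genes were chosen with earlier results of these data known. All 10 loci held at least 1 region, as did 16325 loci of 21122 protein-coding genes.

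The series used ATAC-seq, in which Tn5 transposase cuts accessible DNA, at post-conceptional days 50, 60, 80 and 85, called E50, E60, E80 and E85. Each stage was 1 culture of cryopreserved cortical tissue, dissociated and plated in a progenitor-enriching medium with FGF2, EGF and BDNF, and 2 technical libraries of that culture. In order of age the peak sets held 19833, 61956, 60278 and 30701 peaks, so the share of members called is read beside the share of all regions called at the same stage. With 1 culture per stage no difference has a replicate check, stage and culture cannot be told apart, and no test was run. Intervals are exact Clopper-Pearson 95% intervals over regions and cover counting error alone, although regions of 1 locus are not independent.

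Cortical interneurons that use the transmitter GABA arise mainly in the ganglionic eminences of the ventral forebrain and migrate into the cortex. GSX2 and NKX2-1 pattern ventral progenitors, the DLX homeobox factors act below them in the lineage, LHX6 and SP8 mark different interneuron branches, and GAD1 and GAD2 encode the enzymes that make GABA. In mice the DLX genes sit in convergent pairs whose intergenic segments hold enhancers.

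The regions were called mostly at E60 and E80 and seldom at the youngest and oldest stages. Of the 38 regions, 5 were called at E50 (13.2%, interval 4.41 to 28.1), against 26.0% of all regions. At E60 36 were called (94.7%, interval 82.3 to 99.4), against 82.8% of all regions. At E80 the number was 23 (60.5%, interval 43.4 to 76.0), against 80.3%. At E85 it was 4 (10.5%, interval 2.94 to 24.8), against 40.1%. The members' interval lay below the share of all regions at E80 and E85 and held it at E50, and at E60 it held the share near its lower end. In bulk cultures, fewer cells with an open region and a lower opening in each cell cannot be told apart, and a region that was not called may have been open below the authors' threshold.

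**Figure D1:**
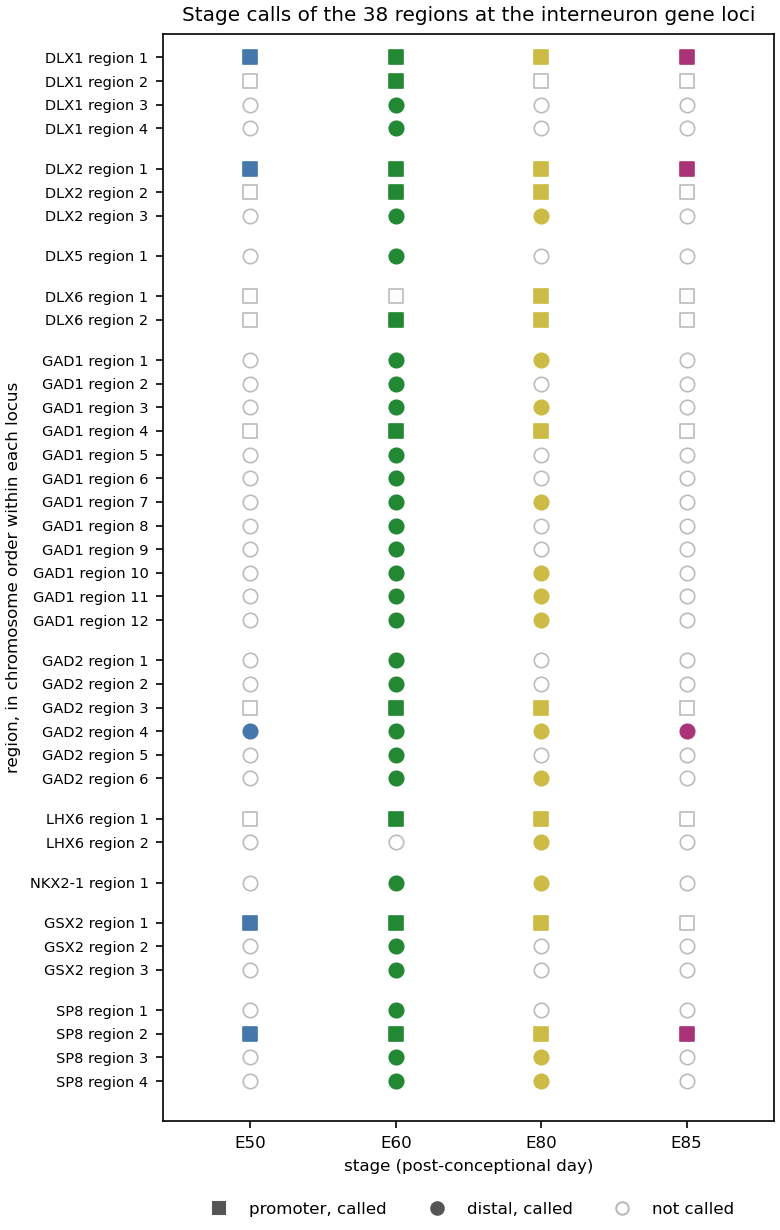
Each row is 1 of the 38 regions and each column a stage, with squares for promoters, circles for distal regions and filled symbols for a call. The E60 column is filled for 36 rows and the E85 column for 4.

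**Figure D2:**
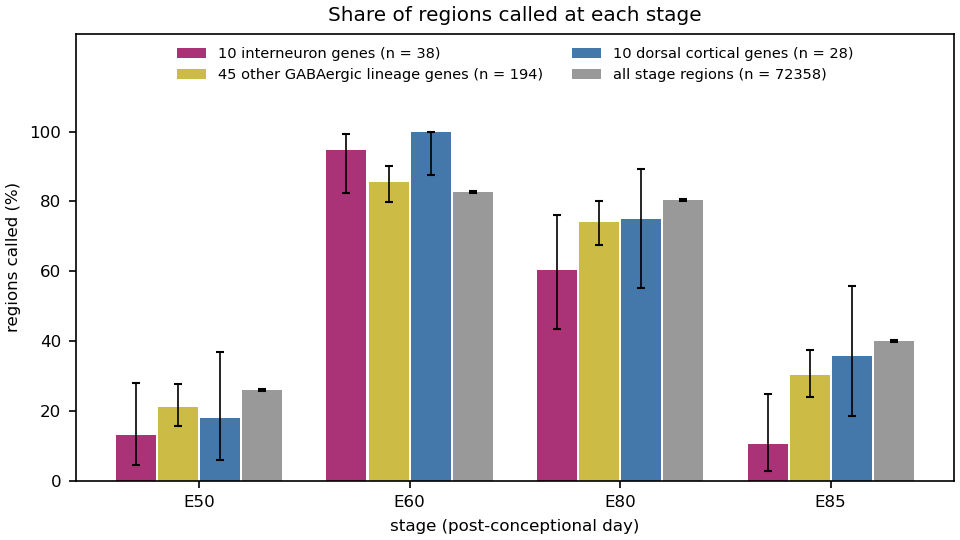
Bars give the percentage of regions called at each stage, with exact 95% intervals. The groups are the 10 interneuron genes, 45 genes listed as other GABAergic lineage, 10 dorsal cortical genes and all regions with a stage peak. The interneuron bars are the lowest of the 4 groups at E50, E80 and E85.

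The combinations of stages were few. Calls at E60 and E80 alone made up 16 of the 38 regions, against 29.4% of all regions, and calls at E60 alone made up 15, against 16.4%. All 4 stages shared 4 regions, against 23.5% of all regions. E80 alone had 2, against 13.3%, and 1 region was called at E50, E60 and E80, a combination of 0.48% of all regions. None was called at E60, E80 and E85 without E50, a combination that made up 12.1% of all regions (0 of 38, exact upper limit 9.25%).

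E80 and E60 had peak sets of similar size, so this pair depends least on set size. At the member loci 2 regions (5.26%) were called at E80 and not at E60, against 14.9% of all regions. The reverse held for 15 (39.5%), called at E60 and not at E80, against 17.4% of all regions. The E80 share of these 17 regions was 11.8% (interval 1.46 to 36.4), against 46.1% of all regions called at 1 of the pair. The same 17 were the late-only regions, which have calls from E80 or E85 but from neither younger culture, and the early-only regions, which have calls from E50 or E60 but from neither older one. Over all regions 15.6% were late-only and 16.8% early-only, so late-only regions made up 48.3% of both kinds together. The late-only share of the members' regions of both kinds was 11.8%, and it was 18.2% (2 of 11) for gene bodies alone and 19.0% (4 of 21) with 20 kb upstream. The 2 late-only regions lay at DLX6 and LHX6. The early-only regions lay at GAD1 (5), GAD2 (3), DLX1 (3), GSX2 (2), DLX5 (1) and SP8 (1).

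Distal regions carried most of this difference between E60 and E80. Promoter here means that the region lies within 1000 bp of the annotated start of a gene, protein-coding or lncRNA, and distal means any other place. By this rule 11 member regions were promoters, 28.9%, against 23.2% of all regions, and 27 were distal. Of the 27 distal regions, 26 were called at E60, against 79.4% of all distal regions, and 13 at E80, against 77.4%. E60 alone accounted for 14 of them (51.9%), against 19.0% of all distal regions. E50 and E85 each held the same single distal member region, in GAD2, against 17.7% of all distal regions at E50 and 31.7% at E85. In order of age, 4, 10, 10 and 3 of the 11 promoter regions were called, against 53.7%, 94.2%, 90.1% and 67.7% of all promoter regions. At E85 the members thus lay below all regions of the same kind for promoters as well as for distal regions. The distal region nearest to the limit was DLX5 region 1, 1154 bp from the gene's start, and the promoter region nearest to it was DLX2 region 2, at 983 bp.

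Sequences are shown for the promoters of the GABA enzymes, for some of the regions called at 1 stage alone, and for the segments between the paired DLX genes. They are read from the plus strand of Mmul_10, the assembly named rheMac10. The promoter windows are the 250 bases before each gene's annotated start, and the others the 300 bases around a region's centre. Capitals mark TAATTA (the core of many homeobox sites), CAGCTG (an E-box), TGACTCA (AP-1), TGACAG (MEIS), GGGCGG (a GC-box) and AACAAT (SOX), searched on both strands.
GAD1 promoter, chr12:57959777-57960026: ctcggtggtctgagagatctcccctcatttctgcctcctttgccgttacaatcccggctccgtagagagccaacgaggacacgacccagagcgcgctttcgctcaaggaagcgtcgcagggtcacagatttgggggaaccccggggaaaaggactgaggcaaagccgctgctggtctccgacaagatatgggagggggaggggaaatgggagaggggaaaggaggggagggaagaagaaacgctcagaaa
GAD2 promoter, chr9:27214219-27214468: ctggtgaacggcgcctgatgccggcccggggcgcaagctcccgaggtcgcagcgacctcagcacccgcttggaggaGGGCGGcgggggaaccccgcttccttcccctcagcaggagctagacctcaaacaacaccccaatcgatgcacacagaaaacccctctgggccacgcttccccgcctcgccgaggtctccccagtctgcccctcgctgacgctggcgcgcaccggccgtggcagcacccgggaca
DLX6 region 1, E80 alone, chr3:109115722-109116021: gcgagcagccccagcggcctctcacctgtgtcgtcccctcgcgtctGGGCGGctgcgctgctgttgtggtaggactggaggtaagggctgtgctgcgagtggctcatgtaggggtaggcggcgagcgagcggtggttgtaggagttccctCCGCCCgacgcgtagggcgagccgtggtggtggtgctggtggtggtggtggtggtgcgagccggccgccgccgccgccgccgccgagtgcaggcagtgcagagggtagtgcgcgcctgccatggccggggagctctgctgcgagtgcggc
DLX1 region 2, E60 alone, chr12:59203676-59203975: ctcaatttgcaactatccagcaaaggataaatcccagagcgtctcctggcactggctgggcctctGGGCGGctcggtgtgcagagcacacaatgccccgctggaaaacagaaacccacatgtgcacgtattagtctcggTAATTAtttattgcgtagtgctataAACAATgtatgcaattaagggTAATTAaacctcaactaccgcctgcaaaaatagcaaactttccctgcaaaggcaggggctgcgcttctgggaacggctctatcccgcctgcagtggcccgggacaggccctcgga
GAD1 region 9, E60 alone, chr12:57980129-57980428: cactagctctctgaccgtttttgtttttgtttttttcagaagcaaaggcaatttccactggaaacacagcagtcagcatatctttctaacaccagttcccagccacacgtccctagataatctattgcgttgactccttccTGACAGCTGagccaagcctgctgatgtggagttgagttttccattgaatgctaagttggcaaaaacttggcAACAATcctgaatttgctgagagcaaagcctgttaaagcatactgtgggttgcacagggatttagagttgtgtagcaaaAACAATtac
Between DLX1 and DLX2, E50, E60 and E80, chr12:59212522-59212821: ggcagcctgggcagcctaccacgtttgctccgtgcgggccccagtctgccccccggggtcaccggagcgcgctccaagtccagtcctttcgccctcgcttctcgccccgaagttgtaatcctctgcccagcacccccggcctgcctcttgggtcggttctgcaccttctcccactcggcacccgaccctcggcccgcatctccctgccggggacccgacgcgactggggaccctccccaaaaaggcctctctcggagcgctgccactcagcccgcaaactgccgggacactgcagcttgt
Between DLX5 and DLX6, E60 alone, chr3:109105175-109105474: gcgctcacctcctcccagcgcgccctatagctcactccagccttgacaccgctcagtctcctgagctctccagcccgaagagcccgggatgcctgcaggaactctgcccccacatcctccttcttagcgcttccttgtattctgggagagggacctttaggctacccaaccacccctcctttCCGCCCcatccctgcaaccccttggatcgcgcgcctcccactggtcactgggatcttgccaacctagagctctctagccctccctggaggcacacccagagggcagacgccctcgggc

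TAATTA occurred in DLX1 region 2 alone of these windows, at 2 places. AACAAT also lies between these places. In GAD1 region 9 TGACAG and CAGCTG overlap by 3 bases, in the run TGACAGCTG, and AACAAT follows at 2 places. The GAD2 promoter window, DLX6 region 1, DLX1 region 2 and the window between DLX5 and DLX6 held GGGCGG. The GAD1 promoter window and the window between DLX1 and DLX2 held none of the 6 motifs. Of 20988 windows of 250 bases before annotated protein-coding genes, fewer than the 21122 such genes, 43.5% held GGGCGG and 4.37% TAATTA. Among the 300-base windows of all 38 regions, 7 held TAATTA (18.4%, interval 7.74 to 34.3), against 8.27% of all regions. CAGCTG was in 7 of them, against 24.3%, TGACAG in 7, against 18.2%, and TGACTCA in 5, against 21.0%. GGGCGG was in 14, against 25.8%, and AACAAT in 6, against 12.5%. These shares pool promoter and distal regions, which differ in motif content. GGGCGG was in 7 of 11 promoter members, against 61.9% of all promoter regions, and 7 of 27 distal members, against 14.9%. TAATTA was in 3 of the 11 (interval 6.02 to 61.0%), against 2.19%, and 4 of the 27 (interval 4.19 to 33.7%), against 10.1%. Those 3 promoter regions all lay at the neighbouring genes DLX1 and DLX2, and the 4 distal ones at GAD1 and GAD2. TGACTCA was in 1 of the 11, against 5.53%, and 4 of the 27, against 25.7%. No window was trimmed to its region, so windows of regions narrower than 300 bp extend beyond them.

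DLX1 and DLX2 encode partner transcription factors that drive interneuron specification and migration, and their promoters were called at all 4 stages. DLX1 lies on chromosome 12 from 59202959 to 59207128 on the plus strand and DLX2 from 59216852 to 59220288 on the minus strand. The DLX1 promoter region spanned 3035 bp (chr12:59200509-59203543) and the DLX2 promoter region 1658 bp (chr12:59219095-59220752). Among all protein-coding genes, 42.7% had promoter calls at all 4 stages. The other regions at both loci were narrower, and none of them was called at E85.

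Inside the DLX1 body, 3 regions of 269, 521 and 528 bp, all centred in introns, were called at E60 alone, with gaps of 667, 1248 and 2135 bp from the nearest DLX1 start. Upstream of DLX2, 2 regions of 265 and 990 bp were called at both E60 and E80. DLX1 thus had 0 late-only and 3 early-only regions and DLX2 had none of either kind. The difference between the partners was not tested.

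The segment between DLX1 and DLX2, 9723 bp long, lies outside the locus rule. It held 5 further regions, all distal. The 2 nearest to DLX1 were called at E60 alone and the 2 nearest to DLX2 at E60 and E80. The middle one, 1781 bp wide (chr12:59211781-59213561), was called at E50, E60 and E80. The region just outside the DLX2 locus ended 6 bp from the gene's end. E85 called no region of this segment.

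DLX5 and DLX6, the second convergent pair, are on chromosome 3 and act in interneuron maturation as well as in limb and craniofacial development. No promoter call was made for DLX5 at any stage, as for 33.1% of all protein-coding genes. Its only region, 1029 bp wide with its centre in a UTR, was called at E60 alone. The DLX6 promoter region of 515 bp was called at E60 and E80, and a neighbouring region of 612 bp centred on its coding sequence was called at E80 alone. A lncRNA gene, LOC106997565, overlaps both DLX6 regions on the opposite strand, and ATAC-seq does not tell strands apart. Between DLX5 and DLX6, a segment of 9062 bp, 3 regions of 754, 651 and 461 bp were all called at E60 alone. The region of 754 bp is distal. Those of 651 and 461 bp count as promoters, by a start of a gene other than DLX5 and DLX6. The pair and its segment had no call at E50 or E85.

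**Figure D3:**
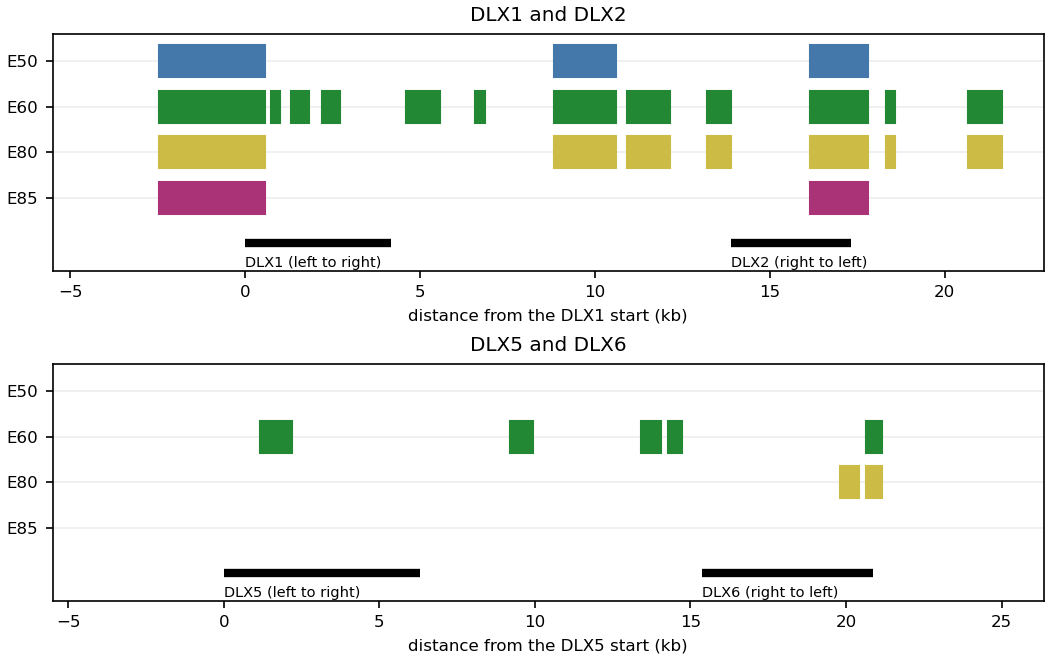
Boxes show the extent of each region called at E50, E60, E80 and E85 around DLX1 and DLX2 and around DLX5 and DLX6, by distance in kb from the DLX1 or DLX5 start, with gene bodies in black. E60 has the most boxes in both pairs, and the lower pair has none at E50 or E85.

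GAD1, which encodes the GABA-synthesizing enzyme GAD67, had the most regions of the 10 genes, 12 against a median of 2 over protein-coding loci with any region. It lies on chromosome 12 from 57960027 to 58006388. Its locus was 51362 bp long, and the other loci ranged from 7460 bp (GSX2) to 94515 bp (GAD2). Region counts were not adjusted for locus length. All 12 GAD1 regions were called at E60 and 7 at E80, and none at E50 or E85. The promoter region was the widest of the 38, at 3866 bp (chr12:57959076-57962941). It merged 3 peaks of E60, 2 of E80 and 7 peaks lifted from other sets, which can add to its width. Promoter regions wider than 3 kb numbered 306 in the series, and 86.3% of them were called at E50 and 97.1% at E60, then 97.1% at E80 and 90.8% at E85. The GAD1 promoter was among those with no call at E50 or E85.

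The 5 early-only regions of GAD1 lay 1 upstream and 4 in introns, the nearest of them 2541 bp and the farthest 19313 bp from the nearest of the 2 annotated GAD1 transcript starts. The regions shared by E60 and E80 reached farther into the gene, to 37241 bp by the same measure. Of regions 1 to 7 in chromosome order, which cluster around the start, E80 called 4.

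GAD2, which encodes the synaptic enzyme GAD65, had 6 regions on chromosome 9 between 27210114 and 27273145. Its promoter region of 1050 bp was called at E60 and E80. Distances here are also from the nearest of the annotated transcript starts, of which GAD2 has 3. Regions 1895 and 3987 bp upstream and one 39959 bp downstream were called at E60 alone. The upstream one farthest from GAD2 also overlaps the end of MYO3A. An intronic region of 1629 bp (chr9:27242044-27243672), 27107 bp downstream, was called at all 4 stages. It was the only distal region of the 38 with a call at E50 or E85. Neither it nor any other of the 46 regions at the loci and between the DLX pairs aligned elsewhere in the assembly over 50% of its length at 90% identity.

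**Figure D4:**
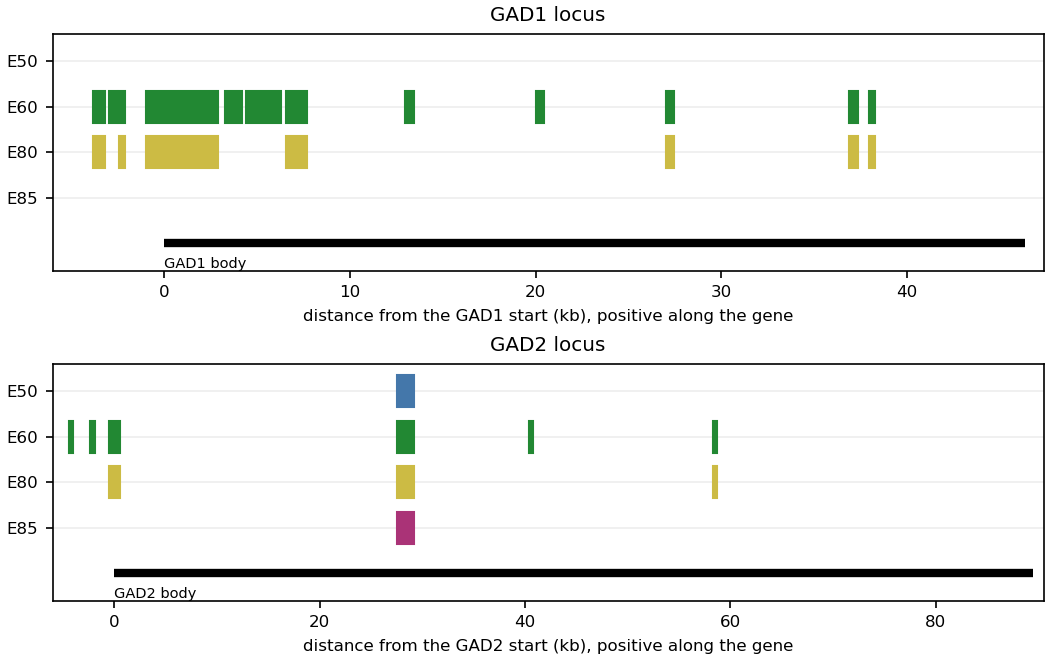
Boxes show the regions called at each stage at GAD1 and GAD2, by distance in kb from the gene's start, with gene bodies in black. GAD1 has 12 boxes at E60, 7 at E80 and none at E50 or E85, and GAD2 has 1 box at E50 and E85, within an intron.

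LHX6, a LIM homeobox factor of interneurons from the medial ganglionic eminence, had 2 regions on chromosome 15. Its promoter region of 528 bp was called at E60 and E80, and an intronic region of 315 bp at E80 alone. NKX2-1, which acts above LHX6 in that eminence, had no promoter call. Its only region, 225 bp wide and 3062 bp upstream (chr7:98598065-98598289), was the narrowest of the 38 and was called at E60 and E80. The nearest region outside its locus was 73690 bp away.

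GSX2, a homeobox factor of lateral ganglionic eminence progenitors, had 3 regions on chromosome 5. Its promoter region of 1615 bp was called at E50, E60 and E80 and not at E85, and both upstream regions, 613 and 515 bp wide, at E60 alone. SP8, a zinc finger factor of caudal and lateral eminence lineages that is also made in cortical progenitors, had 4 regions on chromosome 3. The SP8 promoter region of 1170 bp was called at all 4 stages, a region 4054 bp upstream at E60 alone, and 2 regions in the gene at E60 and E80.

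Promoter calls placed the 10 genes in an order of breadth. DLX1, DLX2 and SP8 were called at all 4 stages, GSX2 at 3, DLX6, GAD1, GAD2 and LHX6 at E60 and E80 alone, and DLX5 and NKX2-1 at none. The group called at E60 and E80 alone held 4 of the 10, against 10.1% of all protein-coding genes. Of the 2 lists described below, it held 3 of the 10 dorsal cortical genes and 8 of the 45 other GABAergic lineage genes. In order of age, 4, 8, 8 and 3 of the 10 genes had a called promoter, against 44.3%, 64.7%, 63.2% and 53.0% of all protein-coding genes.

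**Figure D5:**
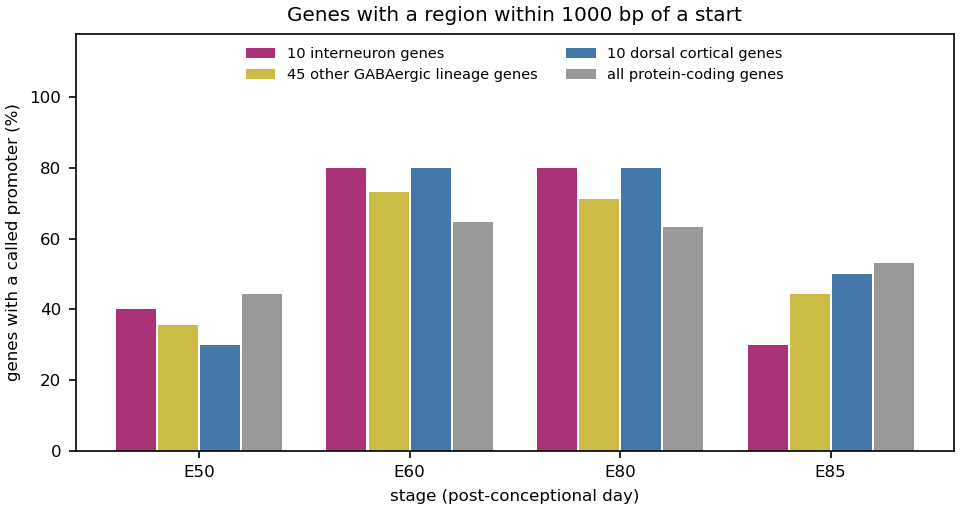
Bars give the percentage of genes with a region within 1000 bp of a start at each stage. The groups are the 10 interneuron genes, 45 genes listed as other GABAergic lineage, 10 dorsal cortical genes and all protein-coding genes. At E60 and E80, 8 of the 10 interneuron genes have a call, and at E85 3 have one.

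Width moved with the calls. A region spans all peaks merged into it, so its width depends in part on the calls themselves. Over all regions the median width was 1005 bp for those called at all 4 stages and 345 bp for those at E60 alone. None of the 28 member regions of at most 1 kb was called at E50 or E85 (exact upper limit 12.3% for each), against 16.7% of all such regions at E50 and 31.2% at E85. E60 called 26 of these 28, against 79.7%, and E80 called 15 (53.6%, interval 33.9 to 72.5), against 77.1%. Of the 10 wider ones, 5 were called at E50 and 10 at E60, then 8 at E80 and 4 at E85, against 67.1%, 96.7%, 94.7% and 79.1% of all regions over 1 kb. The median width of the members was 524.5 bp, against 474 bp for all regions. The part of width in the stage pattern was not tested.

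Peaks lifted from other sets, which the labels do not define, were merged into 28 of the 38 member regions (73.7%, interval 56.9 to 86.6), against 63.3% of all regions. They were in 14 of the 16 called at E60 and E80 alone, against 61.0% of all regions of that kind, and in 8 of the 15 called at E60 alone, against 50.7%. The intronic DLX1 regions, the DLX5 region and the segment between DLX5 and DLX6 held none.

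A wider list of 45 genes was drawn up for the GABAergic lineage, with earlier results of these data known. Its genes are not all particular to that lineage. This list lay between the 10 genes and all regions at all 4 stages. Of its 194 regions, 21.1% were called at E50 and 85.6% at E60, then 74.2% at E80 and 30.4% at E85. Late-only regions numbered 28 and early-only regions 47, so 37.3% were late-only (interval 26.4 to 49.3). That interval holds the 48.3% of all regions. NPAS3, ZFHX3 and SOX6 held 38, 21 and 20 of the 194 regions, so these loci weigh most in the shares. More late-only regions were found at 8 genes, more early-only regions at 18, and equal numbers at 19, which include genes with no region.

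To the early side lay ZEB2, a zinc finger repressor needed for interneuron migration in mice, with 0 late-only and 5 early-only regions. EBF1, a factor of striatal neurons in mice, had 0 and 4, and PROX1 and NKX2-3, both homeobox genes, each had 0 and 2. SOX6, a factor of medial eminence interneurons, had 2 and 6, and ABAT, the enzyme that breaks GABA down, had 1 and 2. To the late side lay NPAS3, a basic helix-loop-helix factor gene, with 10 late-only and 6 early-only regions. ZFHX3 had 4 and 2, and ERBB4, the neuregulin receptor gene, had 3 and 2. NR2F1, a nuclear receptor gene, and RELN, which encodes the secreted protein reelin, each had 2 and 0. The neuropeptide gene CCK had 1 and 1. SLC32A1, the vesicular GABA transporter gene, singled out after its values were seen, had 1 region, at its promoter and called at E60 alone.

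Over all 21122 protein-coding genes 16325 loci held a region, and at 6 of the 45 loci no region was called at any stage. SST, VIP, TAC1 and HTR3A, which mark mature interneuron classes and are named after their values were seen, were among these. The other class markers of the list had calls. PVALB had 1 region, called at E60 and E80, and CALB1, LAMP5 and CRH had 1 each, called at all 4 stages. CALB2 had 3 regions, of which 2, 2, 3 and 2 were called in order of age, and NPY had 2, of which 0, 2, 1 and 0 were called. RELN had 4 regions and CCK 3, each with at least 1 call at every stage. Promoters of the list were called for 16 of the 45 genes at E50 and 33 at E60, then 32 at E80 and 20 at E85. The shares of all protein-coding genes were 44.3%, 64.7%, 63.2% and 53.0%. Of the 45, 15 were called at all 4 stages, against 42.7% of all genes, and 9 at none, against 33.1%.

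Dorsal cortical genes, the lineage of excitatory neurons and the one the labelled tissue mainly gives rise to, were set beside them. The loci of 10 such genes held 28 regions, of which 17.9% were called at E50 and 100.0% at E60, then 75.0% at E80 and 35.7% at E85. Calls at E60 and E80 alone made up 39.3% of the dorsal regions and 42.1% of the interneuron regions. Calls at E60 alone made up 25.0% of the dorsal regions and 39.5% of the interneuron regions. At E85, 4 of the 38 interneuron regions (interval 2.94 to 24.8%) and 10 of the 28 dorsal regions (interval 18.6 to 55.9%) were called, and the intervals overlap. The dorsal list had 0 late-only and 7 early-only regions, with EMX1 and PAX6, both dorsal patterning factors, at 0 and 2 each. Dorsal promoters were called for 3 of 10 genes at E50 and 8 at E60, then 8 at E80 and 5 at E85. The shares of all protein-coding genes were 44.3%, 64.7%, 63.2% and 53.0%. NEUROD2 and NEUROD6, named after their values were seen, had no region. The part of cell composition in the calls of the interneuron genes was not tested.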

How the data were processed

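Per the labels' protocols, 8 Omni-ATAC libraries were made, as 2 technical replicates for each of the 4 cultures. Tools named in the submitters' processing notes are Bowtie2 2.5.1, cutadapt 4.4 and SAMtools 1.15, with rheMac10 as the build. How peaks were called, at which threshold and whether libraries were pooled is not given in the sources used here. As deposited by the authors there was 1 merged region table without a header, and its peak names, which carry a stage code, were the only measurement used. Its 8 unnamed value columns could not be matched to libraries and were not used in any step, so depth per library was not used here. Region starts were read as counted from 0, since the smallest start is 0, and positions are printed counted from 1. The table's own width column equals end minus start plus 1, which counts starts from 1, so printed starts and widths may be off by 1 bp. Regions holding lifted peaks alone were left out, and lifted peaks merged with stage peaks can affect a region's width.

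All sequence names occur in the Mmul_10 assembly report, and 0 regions end beyond their sequence. Loci needed an overlap of at least 1 base. Genes, lists, alternatives and the rule for named genes (list genes with at least 2 late-only plus early-only regions, and all 10 members) were chosen with earlier results of these data known. Values of some genes that the rule names, and some sequences, are not reported here. No test was run. The overlap and distance steps were checked on simulated regions. The 5 loci of most like pattern were those with the smallest Euclidean distance between their shares of regions called at the 4 stages and those of the 10 genes together. Software was BLAST 2.17.0, matplotlib 3.10.9, pysam 0.24.0, SciPy 1.17.1, pandas 2.3.3 and Python 3.11.15.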

Additional observations from a re-analysis of the deposited data

Results flagged for a closer look

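The GAD1 locus held 9 regions with lifted peaks alone, a signal outside the macaque stage calls, beside its 12 regions with a stage peak. Each of the 9 held 1 peak, and all of them carry the set code H23, which the labels do not define. The 10 loci held 13 regions with lifted peaks alone, beside their 38 regions with a stage peak. The whole table held 40338 with lifted peaks alone, beside 72358 with a stage peak. Such regions were thus a larger part at GAD1, and a smaller part at the 10 loci together, than over all regions. These differences were not tested. Of the 13, those outside GAD1 lay at DLX5, LHX6 and NKX2-1.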

How the results depend on the processing

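Of 69 values under alternative settings, 61 stayed within the interval of the main value, or within 1.5 times it for numbers of regions. With regions of at most 1 kb alone, the share of member regions called was 0.0% at E50 and 0.0% at E85. With regions that hold no lifted peak, of which there are 10, the share called was 0.0% at E50, 30.0% at E80 and 0.0% at E85, and the promoter share was 10.0%. The late-only share was 100.0% (18 of 18) without the E60 culture and 0.0% (0 of 32) without the E80 culture. Both values were fixed by the main calls, since every early-only region was called at E60 alone and every late-only one at E80 alone. Regions called at E60 and E80 alone also change class in these settings. The late-only share was 18.2% for gene bodies alone and 19.0% with 20 kb upstream, both within the interval of the main value. Chosen after seeing the data, the setting without the GAD1 locus gave a late-only share of 16.7%, and that with the regions between the paired DLX genes 9.09%. Replicates could not be left out in turn, because peaks are named by stage and not by library. No paired analysis was possible because the peak names carry no replicate number and no test was run.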

Other observations

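Among 5583 other protein-coding loci with a named symbol and at least 3 regions, ARHGAP18, FREM2, MYO3B, ITFG1 and LAMA1 had stage shares nearest to those of the 10 genes together. ARHGAP18 had 10 regions, of which 1, 9, 6 and 1 were called in order of age. FREM2 had 10, of which 1, 10, 6 and 1 were called. The likeness is over 4 stages, each of 1 culture.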
